A study of Mus musculus with 4 samples.

Results

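The receptors of the common gamma chain cytokines were followed in mature peripheral regulatory T (Treg) cells of mice, with the gene for Foxp3 either ablated or intact. Foxp3 is the lineage-defining transcription factor of these suppressive CD4+ cells. The 7 genes considered, Il2ra, Il2rb, Il2rg, Il7r, Il4ra, Il15ra and Il21r, encode the alpha, beta and gamma chains of this family. Every probe set (a group of oligonucleotide probes read together as a transcript's signal) whose annotated symbol was exactly one of these names was taken. This gave 12 probe sets for 6 genes out of 34945 probe sets for 18193 genes, and Il2rg was not analysed here. All cells were CD4+ YFP+ Ly5.2+ T cells that had received Cre recombinase through HR-MMPCreGFP, with YFP as the sign of Cre exposure, and were taken 6 weeks after adoptive transfer. In the deleted group (2 arrays) Cre acted on a Foxp3 gene flanked by loxP sites, and in the control group (2 arrays, called wild-type arrays or control cells) the Foxp3 gene was wild type, so that both groups had met Cre. The sources used here do not give the recipient animals, nor whether the arrays of a group came from separate animals. The p-values therefore reflect the spread among these samples alone, and that spread may be technical.

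The cytokines interleukin-2, interleukin-4, interleukin-7, interleukin-9, interleukin-15 and interleukin-21 each bind a receptor that contains the common gamma chain, encoded by Il2rg. Their private chains set which cytokine is bound, and the kinases JAK1 and JAK3 then activate STAT factors, mainly STAT5 for interleukin-2, interleukin-7 and interleukin-15, STAT6 for interleukin-4 and STAT3 for interleukin-21. Treg cells make little interleukin-2 themselves and depend on it for survival, which they sense through abundant Il2ra (CD25), whereas Il7r (CD127) is typically lower on Treg cells than on conventional CD4+ T cells.

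Foxp3 itself checked the labels. Its probe set read 8.77 and 8.75 in the deleted arrays and 11.40 and 11.23 in the wild-type arrays (log2 intensity), a difference of -2.55 (SE 0.27, and in limma an adjusted p = 0.106). Its position relative to the excised part of the gene is unknown here, so it does not measure how complete the deletion was. Between 35.8% and 36.1% of probe sets per array reached a log2 intensity of 4, the level a probe set's mean had to reach to be tested. All 7 measured T cell markers had a mean above that level, and the CD8 T cell markers Cd8a and Cd8b1 stayed at or below 3.49 on every array. The 5 regulatory T cell markers, Foxp3 among them, summed to intensities of 2960 and 4932 in deleted and 19356 and 20101 in control arrays, with differences of -3.39 for Ctla4, -2.95 for Nrp1, -1.98 for Ikzf2 and -1.72 for Tnfrsf18. One deleted array stood apart in markers of other cells. The 6 myeloid markers summed to an intensity of 1815 in deleted replicate 1, 592 in deleted replicate 2 and between 491 and 613 in the wild-type arrays, with Lyz2 and Csf1r above the filter. On the log2 scale Lyz2 read 9.69 in deleted replicate 1 and 5.65 to 7.24 elsewhere, Fcgr3 read 5.01 and 3.07 to 3.20 elsewhere, and Cd68 read 4.34 and 2.64 to 2.75 elsewhere, whereas Itgam and Cd14 stayed at or below 2.84 throughout. Csf1r, the brightest of the 6 on every array, read 9.85 and 8.93 in deleted versus 9.06 and 8.30 in control arrays. The 3 measured NK cell markers summed to 230.0 in deleted replicate 1 and 56.4 in deleted replicate 2, against 61.6 and 99.8 in wild-type arrays, with Klrk1 at a log2 intensity of 5.14 in deleted replicate 1 and 2.57 to 2.59 elsewhere, and Ncr1 at or below 2.39 throughout. Klra8, the brightest of the 3 on every array, read 7.57 and 5.51 in deleted versus 6.47 and 5.66 in control arrays. The 4 measured B cell markers summed to 39.2 and 52.8 in deleted versus 114 and 124 in control arrays. This rested mainly on Cd79b, the only one above the filter, with a difference of -2.04. The differences were -0.35 for Ms4a1 and -0.05 for both Cd79a and Pax5.

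Across the receptors the largest difference was the lower signal of the IL-2 receptor alpha chain in deleted cells. One of the Il7r probe sets was higher, the beta chain Il2rb had a lower mean that rested mostly on 1 array, Il4ra and Il21r lay close to their wild-type values, and Il15ra was too dim to test. Of the 12 probe sets, 7 from 5 genes passed the filter and were tested, and the other 5 were too dim. None of the 7 passed an adjusted p of 0.05 in limma (adjusted p from 0.155 to 0.987), nor did any of the 13999 tested probe sets (0.0%). At an unadjusted p of 0.05, 3 of the 7 passed (both Il2ra probe sets and 1 of Il7r), where 9.56% of all tested probe sets did. With no overlap between the groups and a difference of at least 1 on the log2 scale, 2 were lower (4.44% of all tested) and 1 was higher (6.67% of all tested). These 3 probe sets come from 2 genes, and the median difference over the 7 was -0.21, against 0.01 over all tested probe sets.

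**Figure D1:**
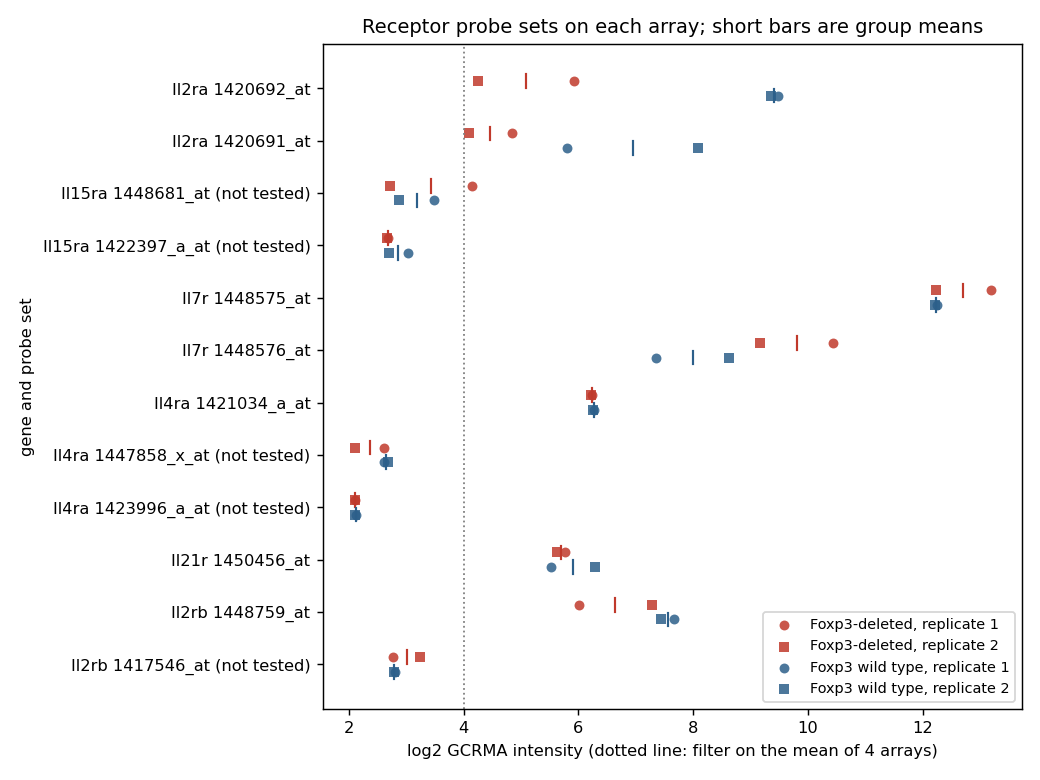
Log2 GCRMA intensity (x axis) of each receptor probe set (y axis) on the 4 arrays, with circles for replicate 1, squares for replicate 2, short bars for group means and a dotted line at the filter of 4. Both Il2ra probe sets are lower in both deleted arrays than in either wild-type array; brightness cannot be compared between probe sets.

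Il2ra encodes the alpha chain (CD25), which raises the affinity of the receptor for interleukin-2 but does not signal. Probe set 1420692_at read intensities of 60.6 and 19.1 in deleted cells and 709.7 and 657 in control cells. On the log2 scale these were 5.92 and 4.26 against 9.47 and 9.36, so both deleted arrays lay far below both wild-type arrays. The means were 5.09 ± 1.18 and 9.42 ± 0.08 (SD, n = 2 per group). The difference was -4.33 (SE 0.62, 95% interval -5.92 to -2.74, unadjusted p = 0.000896 and adjusted p = 0.155 in limma), which leaves 4.98% of the wild-type signal. Only 8 of the 13999 tested probe sets had a more negative difference, as it ranked 9 from the lowest. With a pseudocount of 16 the difference was -3.75, so the share left depends on how the dim deleted values are treated.

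The other Il2ra probe set, 1420691_at, gave a smaller and less even difference. It read log2 intensities of 4.85 and 4.08 in deleted cells versus 5.80 and 8.09 in control cells. The groups did not overlap, but the wild-type arrays stood 2.29 apart, a wider gap than in 98.4% of tested probe sets. The difference was -2.48 (SE 0.83, 95% interval -4.60 to -0.36, adjusted p = 0.451 in limma), or 17.9% of the wild-type signal. It was -3.62 without wild-type replicate 1 and -1.33 without wild-type replicate 2. With a pseudocount of 16 it was -1.90, as the deleted values lay near the level of the filter. The 2 probe sets thus shared a direction and differed in size by 1.85. Since these are bulk samples, fewer cells that make a transcript and less of it per cell cannot be told apart.

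RefSeq promoter windows on build GRCm38.p6, from 250 bases before to 50 after a transcript start, were available for 6 of the 7 genes, in 7 windows. The motifs looked for on both strands were the STAT motif TTCNNNGAA, the forkhead motif TGTTTAC and the NF-kappaB consensus. The shares of all 32851 such windows that held them were 8.30%, 3.65% and 4.51%. The upstream stretches of Il2ra (chr2:11642542-11642791, plus strand) and Il7r (chr15:9529942-9530126, minus strand) are shown because these genes had the largest differences of the family. The Il7r stretch ends 65 bases before the start of its window's transcript, where the annotated gene begins, and the Il2ra stretch runs up to the start. Capitals mark the matches.
Il2ra: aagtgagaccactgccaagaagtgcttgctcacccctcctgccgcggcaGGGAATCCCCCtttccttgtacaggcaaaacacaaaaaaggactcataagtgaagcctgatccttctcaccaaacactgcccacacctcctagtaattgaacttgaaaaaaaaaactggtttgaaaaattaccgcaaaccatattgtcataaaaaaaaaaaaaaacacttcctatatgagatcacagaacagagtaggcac
Il7r: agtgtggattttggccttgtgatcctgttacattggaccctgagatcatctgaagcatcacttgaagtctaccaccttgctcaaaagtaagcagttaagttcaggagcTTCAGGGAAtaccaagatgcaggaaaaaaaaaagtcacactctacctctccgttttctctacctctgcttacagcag
The Il2ra stretch held 2 overlapping NF-kappaB matches, whose first base lay 201 bases before the start, and neither other motif. The Il7r stretch held 1 STAT match, beginning 142 bases before the start. Among the remaining windows, that of Il21r held the forkhead letters 38 bases before its start, that of Il4ra held 1 NF-kappaB match after its start, and those of Il15ra and Il2rg held none. A match is a description of these letters and not of binding.

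Il2rb encodes the beta chain, shared by the receptors for interleukin-2 and interleukin-15, which signals together with the common gamma chain. Its brighter probe set, 1448759_at, read log2 intensities of 6.01 and 7.28 in deleted cells versus 7.67 and 7.44 in control cells. Both deleted arrays were below both wild-type arrays, but deleted replicate 2 lay close to wild-type replicate 2. The difference was -0.91 (SE 0.53, 95% interval -2.26 to 0.44, adjusted p = 0.677 in limma), a mean of 53.2% of the wild-type signal. Without deleted replicate 1 it was -0.27, and without deleted replicate 2 it was -1.55. Its dim probe set, 1417546_at, read 2.77 and 3.23 in deleted versus 2.80 and 2.78 in control cells and was not tested.

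Il15ra encodes the alpha chain of the interleukin-15 receptor, which often presents its cytokine to neighbouring cells. In the RefSeq table it lies on chromosome 2 near Il2ra, with 2 other genes and no protein-coding gene starting between them. Both of its probe sets were dim and neither was tested. Probe set 1448681_at read 4.15 and 2.71 in deleted versus 3.49 and 2.88 in control cells, with overlapping groups. Probe set 1422397_a_at read between 2.66 and 3.02 on all 4 arrays. At this brightness a difference in Il15ra was not measurable.

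Il7r encodes the alpha chain of the interleukin-7 receptor (CD127), which supports survival of resting T cells. Probe set 1448575_at was bright on every array, at 13.19 and 12.23 in deleted versus 12.25 and 12.21 in control cells. Deleted replicate 1 alone stood higher, and deleted replicate 2 fell between the wild-type arrays. The difference was 0.48 (SE 0.35, 95% interval -0.42 to 1.38, adjusted p = 0.732 in limma), and leaving out deleted replicate 1 gave 0.0032, where leaving out deleted replicate 2 gave 0.96. Probe set 1448576_at read 10.44 and 9.17 in deleted versus 7.35 and 8.63 in control cells, without overlap. Its difference was 1.82 (SE 0.64, 95% interval 0.17 to 3.46, unadjusted p = 0.0361 and adjusted p = 0.476 in limma), or 3.52-fold, larger than that of 97.1% of tested probe sets in either direction. Without deleted replicate 1, or without wild-type replicate 1, it was 1.18. The 2 probe sets shared a sign and differed in size by 1.34, and the brighter one read intensities of 4741 to 9318.

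Il4ra encodes the chain that pairs with the common gamma chain to bind interleukin-4. Probe set 1421034_a_at was nearly level over the 4 arrays, at 6.23 and 6.23 in deleted versus 6.27 and 6.26 in control cells. The difference was -0.04 (SE 0.33, 95% interval -0.89 to 0.82, adjusted p = 0.987 in limma), an interval that still admits changes of less than 1 in either direction. Its gap between the deleted arrays was narrower than in all but 0.686% of tested probe sets. With an SD of 0.003 in each group, the SE and interval rest mostly on the variance prior estimated over all tested probe sets. The other Il4ra probe sets were near the lowest values of the arrays and not tested. 1447858_x_at read 2.62 and 2.11 against 2.62 and 2.68, and 1423996_a_at read between 2.10 and 2.12 throughout.

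Il21r, the interleukin-21 receptor chain, is the next annotated gene after Il4ra on chromosome 7, with 0 genes starting between them. Its single probe set, 1450456_at, read 5.77 and 5.62 in deleted versus 5.53 and 6.28 in control cells, so both deleted arrays lay within the wild-type range. The difference was -0.21 (SE 0.41, 95% interval -1.25 to 0.83, adjusted p = 0.914 in limma), and it turned to 0.17 without wild-type replicate 2.

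**Figure D2:**
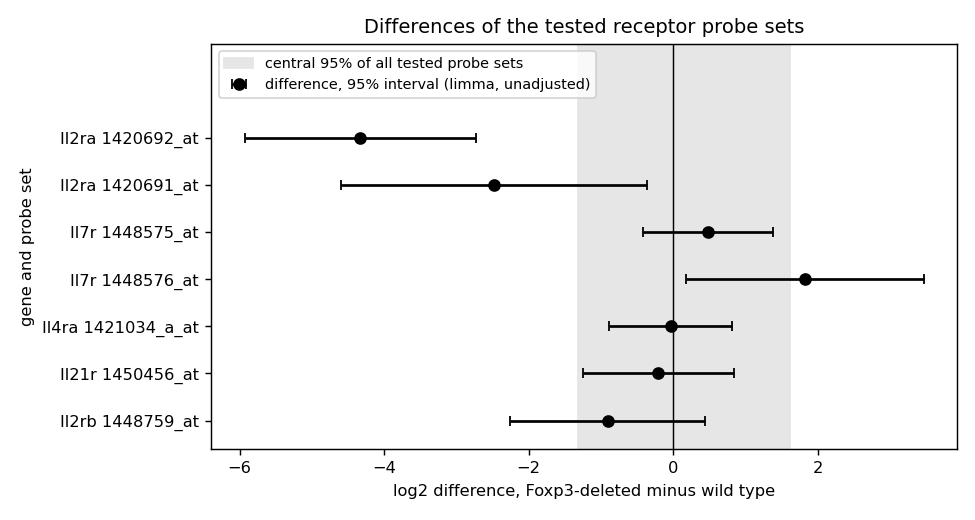
Log2 difference, deleted minus wild type (x axis), of the 7 tested receptor probe sets (y axis), with 95% intervals from limma and a grey band for the central 95% of all tested probe sets (-1.32 to 1.61). Both Il2ra probe sets lie left of the band, 1 Il7r probe set at 1.82 lies right of it, and the other 4 lie inside.

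The gap between the deleted arrays was wider than that between the wild-type arrays for Il2ra 1420692_at, Il2rb and Il7r 1448575_at. For Il2ra 1420691_at and Il21r it was narrower, and for Il4ra and Il7r 1448576_at the gaps were about equal. Over the 7 tested receptor probe sets the median gap was 0.95 between the deleted arrays and 0.23 between the wild-type arrays, whereas over all tested probe sets these were 0.42 and 0.44. Deleted replicate 1 read higher than deleted replicate 2 for 6 of the 7, Il2rb being the exception, and for 7570 of the 13999 tested probe sets. Deleted replicate 1 is also the array with the higher myeloid and NK cell marker sums given above, and the part of those cells in the values of Il7r, Il2rb and Il15ra was not tested. For Il2ra, the difference of 1420692_at was larger without that array, at -5.16, and was -3.50 without deleted replicate 2.

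The other genes of the pathway were read from a list of 27, each by its brightest probe set, of which 18 were tested. Of these, 10 had a lower mean in deleted cells (51.9% of all genes tested did) and 8 a higher one, with a median difference of -0.32, against -0.02 over all 8629 genes tested. None passed an adjusted p of 0.05 in limma (the lowest was 0.151), and 7 were under an unadjusted p of 0.05 (9.71% of all genes tested). At least 1 apart with no overlap were 4 lower genes (4.93% of all genes tested) and 4 higher genes (5.57% of all genes tested). Of the 4 higher genes, Il2, Il21 and Pim2 had wild-type means below the filter and passed it only through the deleted arrays, so that their number is a description and not support for a shift. The same holds for the 7 genes under an unadjusted p of 0.05, as Il21 and Pim2 are among them. The list itself was chosen with earlier results of these data known.

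Targets of STAT5 and feedback inhibitors made up most of the lower genes, with 7 of 9 tested members lower. By the brightest probe set of each, the groups of all 9 did not overlap (39.7% of all genes tested). Dimmer tested probe sets of Bcl2 (1443837_x_at), Mcl1 (1416881_at) and Socs3 (1416576_at) did overlap, and that of Socs3 was higher, at 0.18. Among the 9, Pim2 passed the filter only through its deleted arrays, and the list was chosen with earlier results of these data known. These counts are therefore a description and not support for a shift. Pim1, a survival kinase induced by STAT5, read log2 intensities of 9.70 and 9.51 in deleted versus 11.25 and 11.33 in control cells, a difference of -1.68 (SE 0.26, adjusted p = 0.16 in limma). Cish, an inhibitor that STAT5 induces and that dampens interleukin-2 signalling, read 10.27 and 10.01 against 11.54 and 11.07, a difference of -1.17 (SE 0.29, adjusted p = 0.34). Socs2, a further member of this inhibitor family, read 9.49 and 8.39 against 10.60 and 10.45, a difference of -1.59 (SE 0.44), which was -1.03 without deleted replicate 2. The arrays of each group lay close together for Pim1, while the wild-type arrays of Cish and the deleted arrays of Socs2 were further apart.

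Among survival genes of the BCL-2 family the directions differed. Mcl1 read 12.55 and 12.67 in deleted versus 13.38 and 13.25 in control cells, a difference of -0.71 (SE 0.17, adjusted p = 0.332 in limma), with all 6 of its probe sets lower (-0.95 to -0.24). Bcl2l1, which encodes BCL-xL, read 6.37 and 6.69 against 7.59 and 7.32, a difference of -0.93 (SE 0.36). Bcl2 instead read 11.19 and 9.92 against 9.19 and 9.71, a difference of 1.1 (SE 0.50, adjusted p = 0.595), and its 5 probe sets spanned 0.17 to 2.19. Bcl2 was at 0.47 without deleted replicate 1. Pim2, a kinase related to Pim1, read 5.25 and 5.07 against 4.16 and 3.28, a difference of 1.44 (SE 0.40). Its wild-type mean of 3.72 was below the level of the filter, so that its size depends on the floor of the arrays.

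Of the kinases and STAT factors, 2 were lower and 4 higher of 6 tested. Among the higher ones the groups of Jak3 and Stat6 overlapped. Stat6, also named after its values were seen, was at 0.04, and its dimmer tested probe set at -0.28. Jak1, the kinase that pairs with JAK3 at these receptors and named here after its values were seen, had 3 tested probe sets of the same sign and unequal size. The brightest, 1433803_at, read 9.53 and 8.88 in deleted versus 8.65 and 8.75 in control cells, a difference of 0.50 (SE 0.36, adjusted p = 0.727 in limma) that became 0.18 with deleted replicate 1 left out. Probe set 1433805_at read 8.89 and 8.97 versus 7.23 and 7.82, a difference of 1.40 (SE 0.37, adjusted p = 0.366). Probe set 1433804_at read 6.11 and 7.35 versus 4.37 and 4.14, a difference of 2.48 (SE 0.51, adjusted p = 0.264), larger than the difference of any pathway gene by its brightest probe set. It was the dimmest of the 3, with wild-type values just above the level of the filter, and its difference was 1.81 with a pseudocount of 16. The groups did not overlap on any of the 3, as was so for 5580 of the 13999 tested probe sets. Stat5a read 5.23 and 6.54 in deleted versus 6.88 and 7.01 in control cells, a difference of -1.06 (SE 0.53, adjusted p = 0.634 in limma), which became -0.40 with deleted replicate 1 left out and -1.72 with deleted replicate 2 left out. Stat3 read 8.37 and 9.07 against 8.18 and 7.79, a difference of 0.74 (SE 0.40), which was 0.39 without deleted replicate 2. The other tested Stat3 probe sets, 1459961_a_at and 1426587_a_at, gave smaller differences of 0.20 and 0.44 with overlapping groups. Jak3, the kinase bound to the common gamma chain, read 4.82 and 7.16 against 4.77 and 5.32, and its difference of 0.95 (SE 0.82) turned to -0.22 without deleted replicate 2. The deleted arrays of Stat5a and Jak3 differed from each other by more than the groups did.

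Of the ligands, 2 of 8 were tested and both had a higher mean in deleted cells. Il21 read 5.98 and 6.02 in deleted versus 3.79 and 3.88 in control cells, a difference of 2.16 (SE 0.30, adjusted p = 0.151 in limma). Il2 read 6.26 and 4.75 against 4.40 and 3.55, a difference of 1.53 (SE 0.62, adjusted p = 0.542), which was 0.78 without deleted replicate 1. The wild-type means, 3.84 for Il21 and 3.98 for Il2, were below the level of the filter, so each passed the filter only through its deleted arrays. Il4, not tested, read 4.69 and 3.87 against 2.40 and 1.83, and the other 5 ligands had differences between -0.06 and 0.10 at log2 intensities of 3.32 or less. Crlf2, the chain that joins Il7r in the receptor for the cytokine TSLP, was the only partner chain tested, at 11.20 and 11.40 against 11.71 and 11.67, a difference of -0.39 (SE 0.22).

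**Figure D3:**
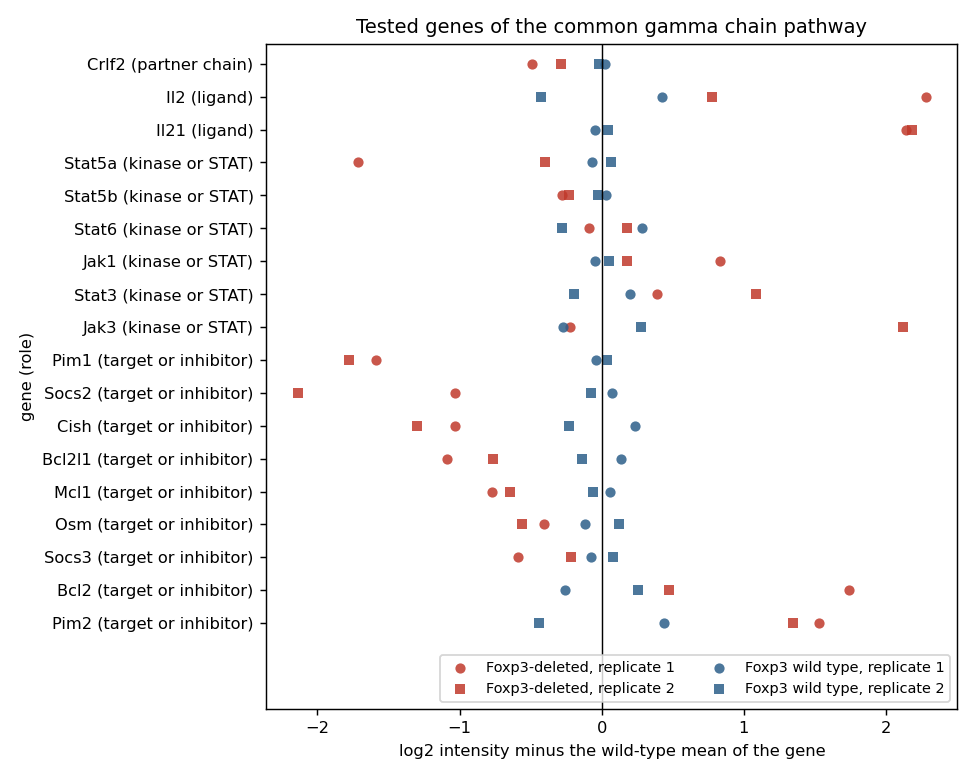
Log2 intensity of each tested pathway gene on each array, minus the gene's wild-type mean (x axis), ordered by role (y axis). Pim1, Socs2 and Cish lie below 0 in both deleted arrays, Il2, Il21, Bcl2 and Pim2 lie above 0 in both, and the deleted arrays of Jak3 and Stat5a lie far apart.

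The genes whose profile over the 4 arrays lay nearest to that of Il2ra were Laptm4b, Havcr2, Cd81, Cd83 and Klrg1. Likeness was the root mean square distance between log2 profiles, each centred on its own mean, among 8628 other genes with 1 probe set each. The distances ran from 0.28 for Laptm4b to 0.59 for Klrg1, against a median of 2.25 over all genes. These 5 genes had differences from -3.88 to -5.34, a size that follows from their choice by nearness to Il2ra. Havcr2, at -3.88, lay below the level of the filter in both deleted arrays and passed it only through its wild-type arrays. The size of its difference therefore depends on the floor of the arrays. Nearest to the brighter Il7r probe set were Smox, Sgms1, Gda, Ppp3cc and Dpp4, at distances of 0.015 to 0.056 against a median of 0.54. Each of these 5 was highest in deleted replicate 1 and near level over the remaining arrays, with differences of 0.44 to 0.50. With 4 arrays such profiles reflect little more than the group difference and the position of 1 array.

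**Figure D4:**
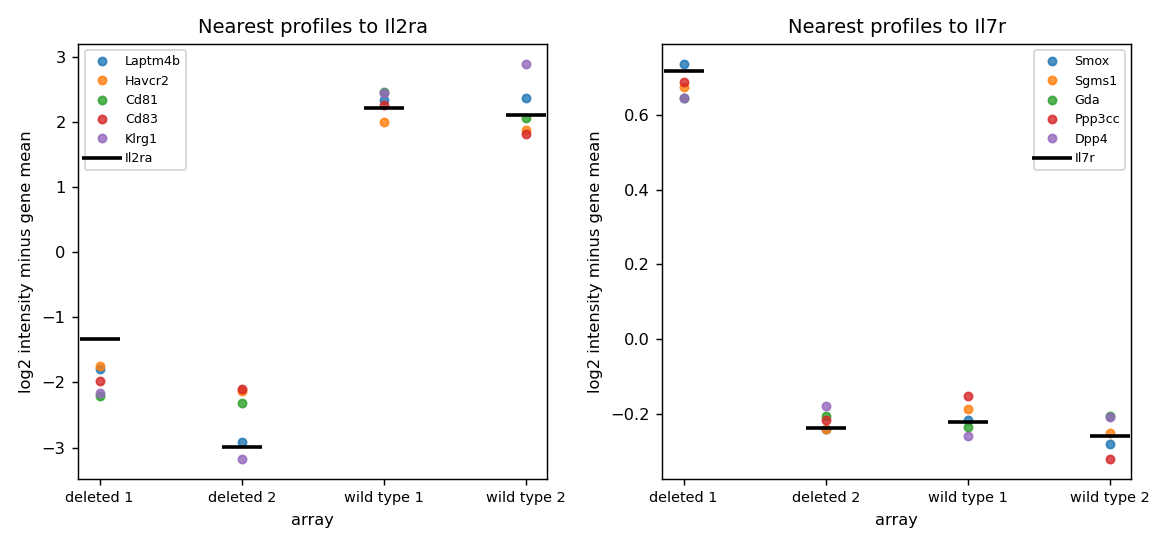
Log2 intensity minus the gene's own mean (y axis) on each array (x axis) for Il2ra and Il7r (black bars) and the 5 nearest genes of each (points). The Il2ra set is split by group, while the Il7r set is split by deleted replicate 1 against the other 3 arrays.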

How the data were processed

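RNA from 4 samples was labelled with biotin and hybridised to 1 single-colour oligonucleotide array each. The authors deposited linear intensities summarised with GCRMA, version 1.1.3 according to the submitters' processing notes, and the sources used here give no other settings. GCRMA subtracts a background set by probe sequence, so differences of dim probe sets are compressed near a floor. Lowest intensities were 1.88 to 1.90 per array.

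Values were taken as log2 with no pseudocount. Probe sets with several symbols (932) or none (9211), and control probe sets were left out. The annotation gave each of the 6 genes a gene ID that matched RefSeq under the same symbol. Those whose mean log2 intensity reached 4 (13999) were fitted together with limma 3.58.1 in R 4.3.3 (lmFit, eBayes with an intensity trend, two-sided). Benjamini-Hochberg adjustment ran over all of them with a threshold of 0.05. Every adjusted p is from this fit unless another setting is named. The 4 arrays leave 2 residual degrees of freedom, to which the variance prior adds 3.06, and the number of arrays limits the precision. The fit was tested on simulated data. No pair of arrays was identical.

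The pathway list, each gene by its probe set of highest mean, was named by rule: genes at least 1 apart with no overlap, and up to 2 more per role. Members and lists were chosen with earlier results of these data known. Alternatives covered the filter, the floor, a pseudocount of 16, normalization, the variance prior, 1 probe set per gene, a replicate block and leaving out each array. Tables used pandas 2.3.3 and plots matplotlib 3.10.9.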

Additional observations from a re-analysis of the deposited data

How the results depend on the processing

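With 2 arrays per group the limits lie in the spread between arrays and in dim signal. The number of receptor probe sets past an adjusted p of 0.05 was 0 in the main setting and in all 14 alternatives, and the tested receptors kept their direction in each that included them (the stricter filter leaves out Il2ra 1420691_at and Il21r), except Il21r (0.17 without wild-type replicate 2). Leaving out 1 array at a time gave ranges of -5.16 to -3.50 and -3.62 to -1.33 for the Il2ra probe sets 1420692_at and 1420691_at, 0.0032 to 0.96 and 1.18 to 2.46 for the Il7r probe sets 1448575_at and 1448576_at, -1.55 to -0.27 for Il2rb, -0.04 to -0.03 for Il4ra and -0.58 to 0.17 for Il21r. For Il2ra 1420692_at the adjusted p ran from 0.0539 to 0.661 over the alternatives. Jak3 ranged from -0.22 without deleted replicate 2 to 2.12 without deleted replicate 1. Over all probe sets, 18 passed with the stricter filter of 6 and 28 with arrays centred on their median, against 0 in the main setting, and none of them was a receptor probe set. With 1 probe set per gene, 1 receptor in place of 3 probe sets was at least 1 apart without overlap, since the second probe sets of Il2ra and Il7r drop out, and leaving out an array gave 3 to 4. With the replicate number as a block the count of receptor calls was 0 and Il2ra 1420692_at had an adjusted p of 0.367. Deviations of same-numbered arrays correlated at -0.27 across probe sets, so a crossed block was added after the data were seen, and it gave 0 calls.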
